A study of Mus musculus with 8 samples.

Results

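The 8 libraries of hypothalamic RNA were ordered by the level of *Slc6a3*, which encodes the plasma membrane dopamine transporter, and the 4 with the most were set against the 4 with the least. The pools were selected on *Slc6a3* CPM (counts scaled by the column total), so 4 of 8 libraries stand on each side. Each library was made from the pooled RNA of a pair of female mice aged 16 weeks, with poly(A) selection and a stranded kit. POMC-C451Af/f mice carry a POMC-Cre transgene, which drives recombination in *Pomc*-expressing cells, with a floxed allele of the estrogen receptor gene *Esr1* that encodes a mutated receptor. Controls are described in the study's methods as C451Af/f littermates and are labelled wildtype, and no source gives them the transgene. The *Slc6a3*-high pools were POMC-C451Af/f replicates 3, 4 and 1 and control replicate 4. The *Slc6a3*-low pools were control replicate 3, POMC-C451Af/f replicate 2, and control replicates 1 and 2. Mutants thus made up 3 of the 4 high pools and 1 of the 4 low pools, and side and genotype go together in 6 of the 8 pools. Total estimated counts, in the order just given, were 36095253, 36564223, 40498166 and 37841365 in the high pools and 48942116, 36651880, 39692314 and 43755502 in the low pools. All values per pool below keep this order.

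*Slc6a3* (ENSMUSG00000021609.7) was at 88.8, 52.9, 36.4 and 26.3 CPM of the total in the high pools and at 15.8, 12.4, 7.01 and 4.23 CPM in the low pools. Control replicate 4, at 26.3 CPM, lay just inside the threshold and control replicate 3, at 15.8 CPM, just outside. Some libraries stood apart from the rest of their side. POMC-C451Af/f replicate 3 held the highest level among the high pools for 21 of 24 midbrain dopaminergic genes, and control replicate 2 the lowest among the low pools for 16 of 24. Pituitary genes were highest in control replicate 1, and control replicate 2 had more RNA of thalamic genes and less of meningeal genes than the other low pools.

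Midbrain dopaminergic neurons of the substantia nigra and ventral tegmental area lie behind the hypothalamus, and their cell bodies hold the mRNA of the dopamine transporter. Hypothalamic dopaminergic neurons also make dopamine with tyrosine hydroxylase, but most of them express little of the transporter and lack the engrailed and *Pitx3* program of the midbrain cells. The hypothalamus itself is covered from below by the leptomeninges, a thin layer of fibroblasts and macrophages.

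A gene was counted as separated when all 4 pools of one side lay above all 4 of the other and the log2 difference, high minus low, exceeded 0.5 in size. This contrast was made from the measured data, so its values are a description with no test. Levels are CPM on library sizes scaled by the TMM method, and differences are log2 estimates of the edgeR fit with their standard error (SE). Of 18636 tested genes other than *Slc6a3*, 54 were separated and higher in the *Slc6a3*-high pools (0.29%) and 143 were separated and lower (0.767%). Without the fold threshold, the sides did not overlap in 760 genes that were higher (4.08%) and 694 that were lower (3.72%). The median log2 difference over all tested genes was -0.00073, and 49.8% of them lay above 0. Among the genes separated and higher, 8 were in the midbrain dopaminergic lists and no other list fixed for this work held any. Among those separated and lower, 7 were in any of the fixed lists, 4 of them meningeal fibroblast genes. Bulk RNA does not tell fewer cells of a type from less RNA per cell.

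All 24 genes of the 3 midbrain dopaminergic lists passed the filter on low counts, and 24 of 24 had a log2 difference above 0. Of these, 14 did not overlap between the sides and 8 were separated, beside 4.08% and 0.29% of all tested genes in that direction. The median log2 difference of the 24 was 0.42, beside -0.00073 over all tested genes. It was 0.32 without POMC-C451Af/f replicate 3 and 0.39 without control replicate 2. Within the mutant pools alone 24 of 24 were higher on the high side, and within the control pools 23 of 24. Each such contrast sets 3 pools against 1, and the sign of the 14 genes without overlap is fixed within a genotype by how they were counted.

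Transcription factors that specify and maintain midbrain dopaminergic neurons had the highest median log2 difference of the 3 lists, 0.59. *En1* (ENSMUSG00000058665.9), an engrailed homeobox factor that these neurons need to survive, was at 6.91, 3.25, 2.42 and 2.01 CPM in the high pools and 0.736, 0.94, 0.323 and 0.367 CPM in the low pools, a log2 difference of 2.62 (SE 0.441). No low pool reached the least of the high pools, and POMC-C451Af/f replicate 3 lay well above the others. *Pitx3*, a homeobox factor required for substantia nigra neurons, measured 1.24, 0.834, 0.642 and 0.477 CPM against 0.389, 0.242, 0.248 and 0.138 CPM, with a difference of 1.61 (SE 0.366). The sides did not overlap here either, although all levels were low. *Nr4a2*, a nuclear receptor that turns on genes of dopamine synthesis, stood at 29.1, 20.9, 21.4 and 17.4 CPM and 15.5, 15.6, 14.3 and 13.5 CPM, and its log2 difference was 0.59 (SE 0.128). Every high pool exceeded every low pool, but without POMC-C451Af/f replicate 3 the difference was 0.43, under the threshold. The forkhead factor *Foxa2*, at 3.17, 1.7, 1.43 and 0.848 CPM and 0.879, 0.537, 0.695 and 0.413 CPM, had a log2 difference of 1.48 but overlapped, as did the engrailed paralog *En2* (1.09, and 0.57 without POMC-C451Af/f replicate 3), *Foxa1* (0.38), *Sox6* (0.16) and *Lmx1a* (0.11, with 0.011 without control replicate 2 and 0.21 without control replicate 3). *Lmx1b*, a LIM homeobox factor of early midbrain patterning, did not overlap at a log2 difference of 0.32. In sum over the 9 factors the level was 83.4, 66.5, 62.7 and 59.9 CPM in the high pools and 50.9, 50.6, 48.7 and 47.7 CPM in the low pools.

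Genes of dopamine synthesis and storage had a median log2 difference of 0.37. *Th*, the rate-limiting enzyme of dopamine synthesis, which hypothalamic neurons also express, was at 90.8, 73.1, 60.3 and 51.1 CPM in the high and 50.9, 55.4, 47 and 42 CPM in the low pools, a log2 difference of 0.49 (SE 0.15). Control replicate 4 lay below POMC-C451Af/f replicate 2, so the sides overlapped, and without POMC-C451Af/f replicate 3 the difference was 0.33. *Slc10a4*, a vesicular protein of monoaminergic and cholinergic neurons, measured 14.5, 11.4, 8.81 and 8.71 CPM against 5.07, 5.83, 3.99 and 4.58 CPM, with a difference of 1.15 (SE 0.171). It was the separated member of this list. The decarboxylase *Ddc* (0.35), the vesicular monoamine transporter *Slc18a2* (0.40) and the autoreceptor *Drd2* (0.28) did not overlap at differences under the threshold. Without POMC-C451Af/f replicate 3, *Ddc* was at 0.23. *Gch1*, which makes the cofactor of tyrosine hydroxylase, had a log2 difference of 0.12, and 0.00035 without the same pool or 0.051 without control replicate 2. The summed level of the 6 genes was 279, 227, 208 and 193 CPM in the high pools and 179.9, 182, 170.1 and 146 CPM in the low pools.

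Of 9 receptors and other markers of midbrain dopaminergic neurons 4 were separated, with a median log2 difference of 0.45, and 0.25 without POMC-C451Af/f replicate 3. *Chrnb3* (ENSMUSG00000031492.14), a nicotinic acetylcholine receptor subunit, was at 12.5, 5.81, 4.05 and 3.15 CPM in the high pools and 2.13, 1.85, 2.43 and 1.28 CPM in the low pools, a log2 difference of 1.72 (SE 0.393). Its partner subunit *Chrna6* measured 17.3, 11.1, 8.1 and 6.78 CPM and 5.36, 4.24, 4.59 and 2.89 CPM, with a difference of 1.33 (SE 0.276). Both were highest in POMC-C451Af/f replicate 3 and lowest in control replicate 2, with no overlap. Without POMC-C451Af/f replicate 3 the difference was 1.17 for *Chrnb3* and 1.01 for *Chrna6*. The pair are neighbours on chromosome 8 of GRCm38, *Chrnb3* from 27368711 to 27399730 on the plus strand and *Chrna6* from 27403212 to 27413944 on the minus strand. *Ret*, the signalling receptor for glial cell line-derived neurotrophic factor, stood at 116, 98.7, 85.7 and 68.5 CPM against 65.4, 60.7, 52 and 58.3 CPM, and the difference was 0.64 (SE 0.132). *Gucy2c*, the guanylyl cyclase C receptor, was at 5.08, 2.53, 2.42 and 1.93 CPM and 1.9, 1.8, 1.39 and 0.779 CPM, a difference of 1.02 (SE 0.33). Control replicate 4 and control replicate 3 were close in *Gucy2c*, so its separation is narrow, and without POMC-C451Af/f replicate 3 its difference was 0.64. The neurotensin receptor *Ntsr1* (0.19) and the neurokinin receptor *Tacr3* (0.16) did not overlap at smaller log2 differences, *Tacr3* at 0.098 without control replicate 2. The retinaldehyde dehydrogenase *Aldh1a1* (0.45), the co-receptor *Gfra1* (0.061) and gamma-synuclein, *Sncg* (0.092), overlapped, and *Aldh1a1* was at 0.25 without POMC-C451Af/f replicate 3. Without the same pool *Gfra1* was at 0.0098 and *Sncg* at 0.037, and *Sncg* was at 0.023 without control replicate 2. Other left-out pools raised them, *Gfra1* to 0.099 without POMC-C451Af/f replicate 1 and *Sncg* to 0.15 without control replicate 1. Summed over the 9 genes the level was 454, 367, 335 and 299 CPM in the high pools and 296, 284, 264 and 273 CPM in the low pools.

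**Figure D1:**
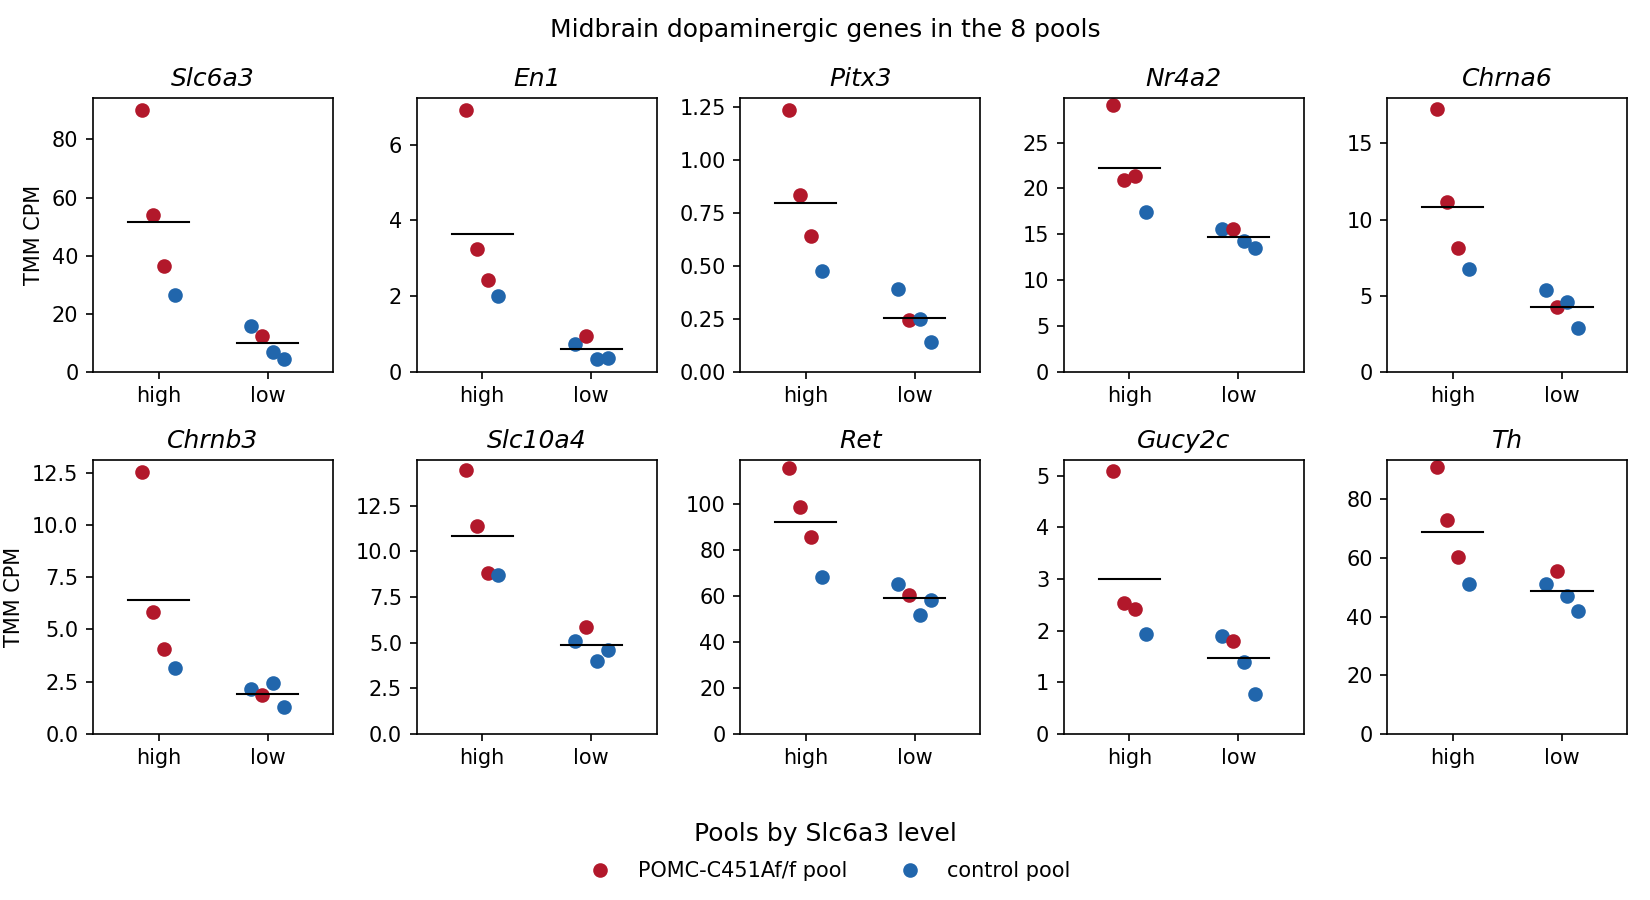
Level in CPM on TMM-scaled library sizes of midbrain dopaminergic genes in each pool, with the *Slc6a3*-high pools on the left and the low pools on the right of each panel; points are pools, coloured by genotype, and lines are side means. *En1* spans 2.01 to 6.91 CPM in the high pools and 0.323 to 0.94 CPM in the low pools.

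Promoters of members that moved together are printed here so that their sequence can be read beside the levels. Each RefSeq window of GRCm38.p6 is 300 bases long and is written 5′ to 3′ on the gene's strand. On both strands, 4 motifs were searched and are in capitals: AAAGGTCA, bound by Nr4a2, TAATCC, bound by Pitx3, TAATTA, bound by En1, and GGGCGG, bound by Sp1. The search first used the 3 motifs of the dopaminergic factors and found few matches, and GGGCGG was added after that. *Ddc* is shown because its window was then known to hold AAAGGTCA, and *Avp*, chosen at first and without a match, is not shown, so neither the fourth motif nor the windows printed are a neutral choice. The windows are chr13:73536497-73536796 (plus strand), chr1:120602237-120602536 (plus), chr5:73006654-73006953 (plus) and chr11:11898095-11898394 (minus).
Slc6a3: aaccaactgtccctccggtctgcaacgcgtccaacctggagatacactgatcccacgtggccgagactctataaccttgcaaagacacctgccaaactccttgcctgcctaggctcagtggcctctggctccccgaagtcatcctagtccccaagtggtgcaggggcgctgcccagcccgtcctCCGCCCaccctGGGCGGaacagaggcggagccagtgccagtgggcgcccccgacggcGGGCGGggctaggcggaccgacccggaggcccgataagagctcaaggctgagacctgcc
En1: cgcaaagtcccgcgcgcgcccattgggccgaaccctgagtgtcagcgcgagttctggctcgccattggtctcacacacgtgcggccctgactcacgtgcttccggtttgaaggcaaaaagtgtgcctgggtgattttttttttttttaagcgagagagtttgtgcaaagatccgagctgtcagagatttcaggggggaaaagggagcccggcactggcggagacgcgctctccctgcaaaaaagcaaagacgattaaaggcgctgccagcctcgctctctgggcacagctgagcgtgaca
Slc10a4: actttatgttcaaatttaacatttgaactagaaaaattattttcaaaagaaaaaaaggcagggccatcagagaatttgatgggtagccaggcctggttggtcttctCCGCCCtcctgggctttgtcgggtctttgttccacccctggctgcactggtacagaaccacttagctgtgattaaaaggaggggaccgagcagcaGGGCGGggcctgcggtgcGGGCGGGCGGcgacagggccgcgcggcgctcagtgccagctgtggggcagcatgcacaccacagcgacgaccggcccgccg
Ddc: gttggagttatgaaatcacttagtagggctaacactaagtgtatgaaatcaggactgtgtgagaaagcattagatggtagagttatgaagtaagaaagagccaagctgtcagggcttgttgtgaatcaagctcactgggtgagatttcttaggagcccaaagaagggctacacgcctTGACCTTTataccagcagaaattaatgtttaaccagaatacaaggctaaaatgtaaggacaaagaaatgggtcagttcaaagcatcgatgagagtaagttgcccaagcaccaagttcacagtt

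The *Slc6a3* window held 3 matches to GGGCGG and that of *Slc10a4* held 4, of which 1 pair overlap. The *Ddc* window held 1 match to AAAGGTCA, and the other *Ddc* promoter, at chr11:11890359-11890658 on the minus strand, held none of the 4 motifs. None of these letters are in the *En1* window. Of the 24 members, 19 matched the table by symbol, with 28 promoters; *En2*, *Chrna6*, *Chrnb3*, *Ret* and *Gucy2c* did not match. AAAGGTCA was in 2 of the 28 (7.14%; *Ddc* and *Sox6*) and in 1.51% of all 32851 promoters. TAATCC was in 1 (3.57%) against 7.06%, TAATTA in 0 against 5.29%, and GGGCGG in 14 (50%) against 35.7%. A match describes the letters of a window and is neither a site nor a cause.

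Genes of regions next to the hypothalamus were examined beside these. Of 19 genes of other midbrain and hindbrain neurons, 11 passed the filter, 9 of them were above 0 and 0 were separated, with a median log2 difference of 0.45. Without POMC-C451Af/f replicate 3 this median was 0.049, and without POMC-C451Af/f replicate 1 it was 0.72. POMC-C451Af/f replicate 3 held 6.37 CPM of *Pou4f1*, a POU factor of the habenula and red nucleus, where the other pools held 0.0988 to 0.511 CPM. The same pool held 5.22 CPM of *Chrnb4* and 11.1 CPM of *Chrna3*, where the others held 0.862 to 1.8 CPM and 4.22 to 5.88 CPM. The summed level was 52.2, 33.9, 25.4 and 29.7 CPM in the high pools and 26.1, 27.1, 25.8 and 26 CPM in the low pools, and *Gata2*, a factor of midbrain GABAergic neurons, was the most abundant gene by count. *Hoxa2*, a hindbrain gene, had a count of 0 in all 8 pools, and serotonergic *Slc6a4* and *Fev* and noradrenergic *Dbh* and *Slc6a2* had at most 9 counts in any pool. Their part in the result was not tested.

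Thalamus and habenula genes were above 0 in 9 of 9 cases, with a median log2 difference of 0.41 and none separated. Their summed level was 511, 336, 282 and 204 CPM in the high pools and 208, 171, 112 and 502 CPM in the low pools, led by *Prkcd*, a protein kinase C of thalamic relay neurons, and none of the 9 was at 0. The median was 1.0 without control replicate 2, 0.16 with control replicate 1 left out, 0.25 without POMC-C451Af/f replicate 2 and 0.14 when POMC-C451Af/f replicate 3 was dropped. Within mutants 9 of 9 were above 0 and within controls 3 of 9. The part of thalamic RNA in the result was not tested. Mammillary and subthalamic genes, which mark the hind end of the hypothalamus, had a median of -0.063 (-0.11 to -0.028 with a pool left out) with 4 of 5 below 0. The telencephalic list had a median of -0.087 (-0.15 to 0.035 with a pool left out) over 11 genes, led by *Rgs9* of the striatum, with none separated.

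Among hypothalamic neuropeptides, 21 of 29 genes that passed the filter were below 0, with a median log2 difference of -0.23. Of the 29, 1 was separated and lower and 2, that one included, did not overlap. Over all tested genes these shares were 0.767% and 3.72%, and counts this small are not read as a result. The separated gene was *Avp* (ENSMUSG00000037727.7), which encodes vasopressin of magnocellular and suprachiasmatic neurons. It measured 116, 149.8, 166 and 152 CPM in the high pools and 239, 229, 261 and 195 CPM in the low pools, a log2 difference of -0.66 (SE 0.105). The least of the low pools, control replicate 2, lay above the most of the high pools, POMC-C451Af/f replicate 1. *Pdyn*, the prodynorphin gene that vasopressin neurons also express, did not overlap at -0.35. Oxytocin, *Oxt*, overlapped at -0.47, melanin-concentrating hormone, *Pmch*, at -0.37 and orexin, *Hcrt*, at -0.33. Of the 29 neuropeptides, 17 were below 0 within both genotypes (58.6%), beside 29.7% of all tested genes. The median was -0.32 within mutants and -0.036 within controls. Without POMC-C451Af/f replicate 3 the median of the list was -0.13. *Kiss1*, which encodes kisspeptin, did not pass the filter, with at most 12.6 counts in any pool.

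*Pomc*, the precursor of melanocortins in arcuate neurons and in the pituitary, was at 35.8, 30.6, 49.5 and 50.8 CPM and 50.5, 50.2, 98.9 and 49.7 CPM, a log2 difference of -0.58 (SE 0.235). Control replicate 1 stood far above every other pool, and without it the difference was -0.27. Pituitary genes were below 0 in 8 of 8 cases, with a median of -0.56 that turned to 0.20 without that pool and was -0.86 without control replicate 2. Their summed level was 21.8, 194, 229 and 37.7 CPM in the high and 27.3, 38.3, 1461 and 100.4 CPM in the low pools, with prolactin, *Prl*, the most abundant. No gene of the list was at 0 in all pools. The part of pituitary RNA in the *Pomc* difference was not tested.

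Hypothalamic transcription factors were below 0 in 20 of 25 cases, with a median of -0.18, and -0.10 without POMC-C451Af/f replicate 3 or -0.11 without POMC-C451Af/f replicate 4. Within mutants 4 of 25 were above 0, but within controls 13 of 25 were, with a median of 0.00082 there. Of the 25, 1 was separated and lower and 2, that one included, did not overlap, beside 0.767% and 3.72% of all tested genes. The separated gene was *Foxd1*, a forkhead factor of hypothalamic development, at 2.02, 2.28, 1.9 and 1.8 CPM in the high and 3.42, 3.47, 3.23 and 2.54 CPM in the low pools, a log2 difference of -0.66 (SE 0.137). *Otp*, a homeobox factor of neuroendocrine neurons and the most abundant of the list, did not overlap at -0.36. Hormone receptors of the hypothalamus had a median of -0.033 (-0.11 to -0.0085 with a pool left out) over 16 genes with none separated. The vasopressin receptor *Avpr1a* did not overlap at -0.14, 1 of 16 genes beside 3.72% of all tested genes. *Esr1*, the mutated gene, had a log2 difference of -0.013 (SE 0.123), which turned with single pools left out (-0.18 to 0.065).

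Genes of the meninges had log2 differences below 0, although their summed level overlapped between the sides. Of 6 meningeal fibroblast genes, 6 were below 0 and 4 separated, beside 0.767% of all tested genes separated and lower. The median log2 difference was -0.62. *Slc6a13*, a GABA and taurine transporter of leptomeningeal cells, measured 3.88, 4.45, 5.43 and 3.02 CPM in the high pools and 17, 13.9, 13 and 6.78 CPM in the low pools, a difference of -1.59 (SE 0.256). *Igf2*, a growth factor made in the meninges, was at 37.6, 36.8, 45.2 and 29.6 CPM and 119, 104, 92.4 and 47.7 CPM, with a difference of -1.28 (SE 0.23). Control replicate 2 lay nearest to the high pools in both. The collagen genes *Col1a1* (-0.50) and *Col1a2* (-0.72) were also separated, and *Dcn* (-0.51) and *Lum* (-0.36, with -0.61 without control replicate 2 and -0.24 without control replicate 3) were not. *Col1a1* barely met both criteria, with 10.7 CPM in the highest of the high pools and 10.7 CPM in the lowest of the low pools, and it fell under the threshold without any 1 of 4 pools, at -0.44 without POMC-C451Af/f replicate 2, -0.50 without POMC-C451Af/f replicate 3, -0.47 without control replicate 3 and -0.42 without control replicate 4. The summed level of the 6 genes was 85.5, 85, 105 and 75 CPM in the high and 209, 194, 186 and 105 CPM in the low pools. *Igf2* was the most abundant and none was at 0. Their part in the result was not tested.

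Outside the lists fixed for this work, the separated genes with the lowest log2 differences included *Slc22a6*, an organic anion transporter, at 0.87, 1.2, 1.68 and 0.291 CPM in the high pools and 10.1, 8.92, 8.51 and 2.11 CPM in the low pools. Its difference was -2.86 (SE 0.502). *Slc13a4*, a sulfate transporter, stood at 2.36, 2.17, 3.9 and 1.32 CPM and 19.5, 14.5, 15.2 and 5.48 CPM, with a difference of -2.48 (SE 0.38). Neither overlapped, and in both control replicate 4 was the least of the 8 pools. The others named by the rule were lubricin, *Prg4* (-2.45), the proteoglycans *Fmod* (-2.29) and *Ogn* (-1.89), *H2-Q1* (-2.27), *Osr1* (-2.25), *Slc6a12* (-2.24), *Itih2* (-1.76), *Lyve1* (-1.72), *Sphk1* (-1.70) and *Igfbp6* (-1.58). *H2-Q1* belongs to a family of similar class I genes, so its count is uncertain. *Slc6a12*, a betaine transporter, is a neighbour of *Slc6a13* on chromosome 6. Of the 143 genes separated and lower, 90 had their least low-side level in control replicate 2.

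The windows of the leading pair are shown for the same reason as those above, chr6:35308077-35308376 (minus strand) and chr19:8617746-8618045 (plus), with matches in capitals. That of *Slc13a4* held 1 match to GGGCGG and that of *Slc22a6* held 1 to TAATCC.
Slc13a4: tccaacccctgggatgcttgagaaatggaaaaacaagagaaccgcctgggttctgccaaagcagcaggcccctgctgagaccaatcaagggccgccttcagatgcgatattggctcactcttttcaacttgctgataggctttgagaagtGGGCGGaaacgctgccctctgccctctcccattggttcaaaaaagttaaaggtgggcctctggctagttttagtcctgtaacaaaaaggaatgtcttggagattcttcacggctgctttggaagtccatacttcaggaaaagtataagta
Slc22a6: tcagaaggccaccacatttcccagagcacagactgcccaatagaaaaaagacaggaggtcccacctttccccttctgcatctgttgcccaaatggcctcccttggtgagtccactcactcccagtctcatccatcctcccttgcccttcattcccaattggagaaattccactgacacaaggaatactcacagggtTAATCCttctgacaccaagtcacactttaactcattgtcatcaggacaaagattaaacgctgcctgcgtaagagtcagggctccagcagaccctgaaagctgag

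After these values were seen, 3 more lists were written, for the leptomeningeal barrier, border macrophages and mural cells, and since they were chosen on the result they carry no weight of their own. Of 20 leptomeningeal genes 19 were below 0 and 11 separated, beside 0.767% of all tested genes separated and lower. The median of the leptomeningeal genes was -1.02. *Ptgds*, which makes prostaglandin D2 and was the most abundant gene of that list, was at 283, 280.3, 366 and 232 CPM in the high and 1104, 974, 869 and 463 CPM in the low pools, a log2 difference of -1.55 (SE 0.225). Of 13 border macrophage genes 12 passed the filter, 12 were below 0 and 7 separated, beside the same 0.767%, with a median of -0.91. The scavenger receptor *Cd163* was at 1.12, 0.946, 1.38 and 1.38 CPM and 2.62, 2.79, 1.86 and 1.65 CPM, with a difference of -0.88 (SE 0.207). *Stab1*, the most abundant gene of that list, overlapped at -0.16. Of 9 mural genes 8 were below 0 and *Tagln* was separated (-0.63, and -0.42 without POMC-C451Af/f replicate 2), with a median of -0.25, or -0.14 without the same pool. Of the 9, 3 did not overlap, beside 3.72% of all tested genes. *Rgs5* of pericytes, the most abundant, overlapped at -0.039 (-0.085 to -0.0044 with a pool left out), as did *Kcnj8* (-0.062) and *Abcc9* (0.049). Summed levels were 616, 584, 689 and 521 CPM against 1586, 1425, 1290.3 and 825 CPM for the leptomeningeal list, 31.6, 27.5, 31.6 and 26.9 CPM against 45, 48.7, 46 and 32.6 CPM for macrophages and 163, 162, 144 and 147 CPM against 171, 179, 165 and 168 CPM for mural cells. None of these genes was at 0 in all pools, and their part in the result was not tested.

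**Figure D2:**
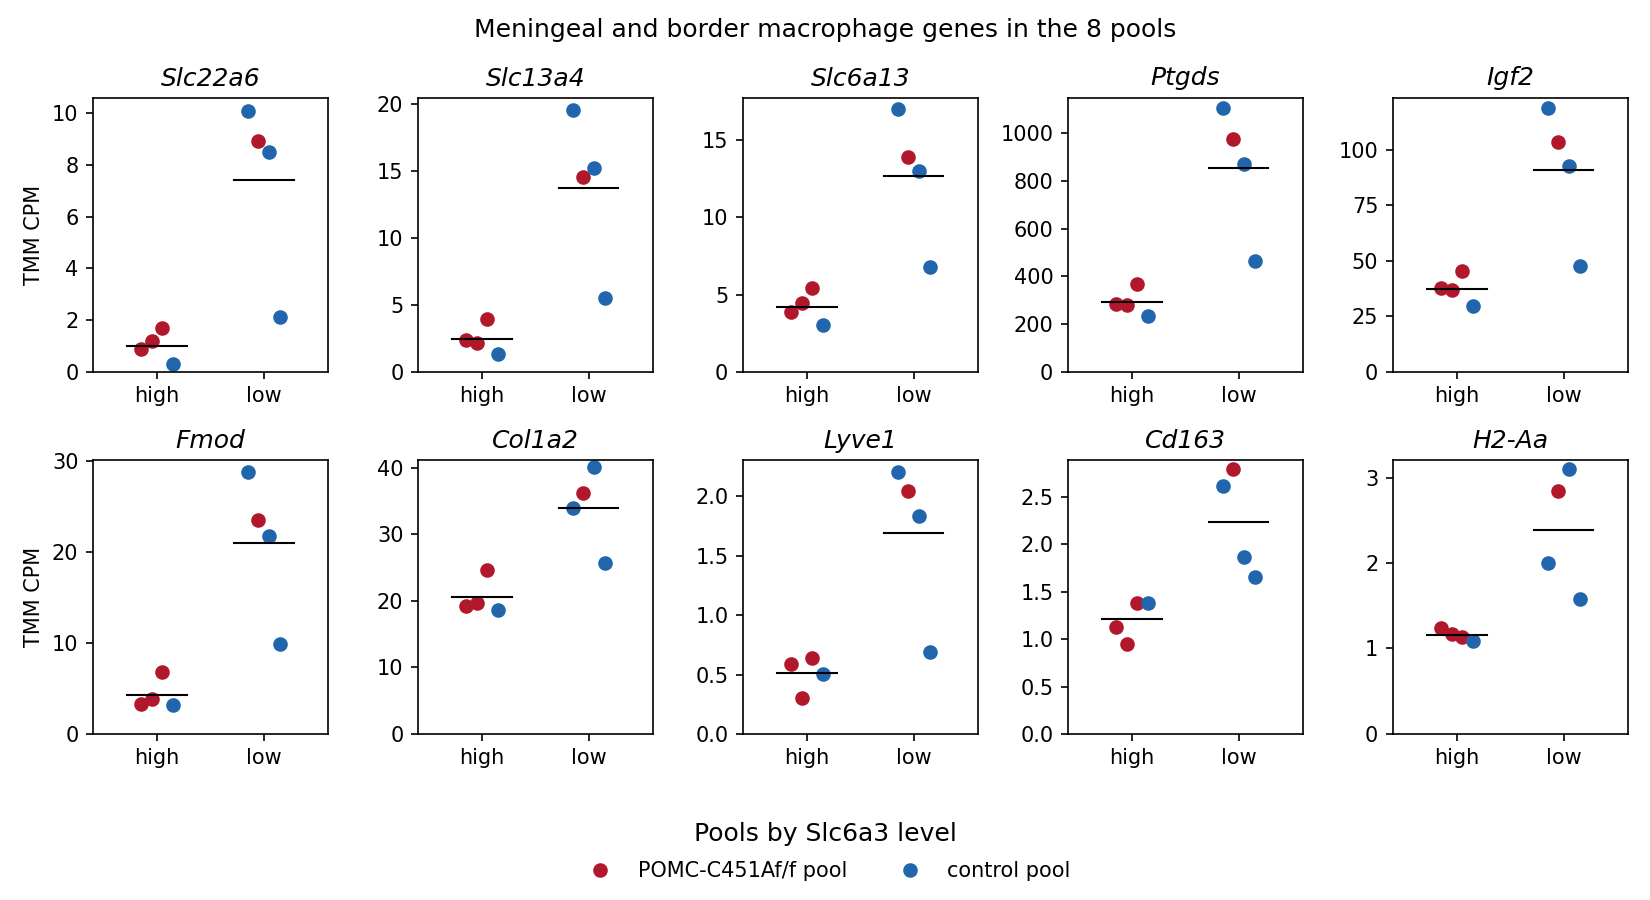
Level in CPM on TMM-scaled library sizes of meningeal and border macrophage genes in each pool, by side of *Slc6a3*; points are pools, coloured by genotype, and lines are side means. *Ptgds* lies between 232 and 366 CPM in the high pools and between 463 and 1104 CPM in the low pools.

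Oligodendrocyte genes were above 0 in 10 of 10 cases, with a median log2 difference of 0.18, and 0.11 without POMC-C451Af/f replicate 3, and none separated. Within mutants and within controls 10 of 10 were also above 0, and 2 of 10 did not overlap, beside 4.08% of all tested genes. Their summed level was 7399.9, 6797, 6090.5 and 6128 CPM in the high pools and 6168, 6002, 5177 and 6095 CPM in the low pools, led by myelin basic protein, *Mbp*, with none at 0. The part of myelin RNA in the result was not tested. Median log2 differences were 0.0037 (-0.024 to 0.035 with a pool left out) for astrocytes, led by *Slc1a2*, 0.034 (-0.0017 to 0.051 with a pool left out) for microglia, -0.070 (-0.11 to 0.0041 with a pool left out) for endothelium, led by *Flt1*, and -0.097 (-0.20 to 0.021 with a pool left out) for ependyma and tanycytes, led by *Col23a1*, with no separated gene. The choroid plexus list had a median of 0.062 (-0.055 to 0.21 with a pool left out) over 8 genes, and its separated member was the potassium channel *Kcnj13*, at 0.14, 0.417, 0.222 and 0.0795 CPM and 2.02, 1.45, 1.54 and 0.688 CPM (-2.72). Blood genes, led by *Hbb-bs*, had a median of 0.34 that turned to -0.088 without POMC-C451Af/f replicate 3 (-0.088 to 0.53 with a pool left out), and within controls 1 of 5 was above 0. The median was, for general neuronal genes, led by *Snap25*, 0.048 (0.019 to 0.065 with a pool left out), and immediate early genes, led by *Egr1*, 0.14 (0.079 to 0.21 with a pool left out), none with a separated gene.

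**Figure D3:**
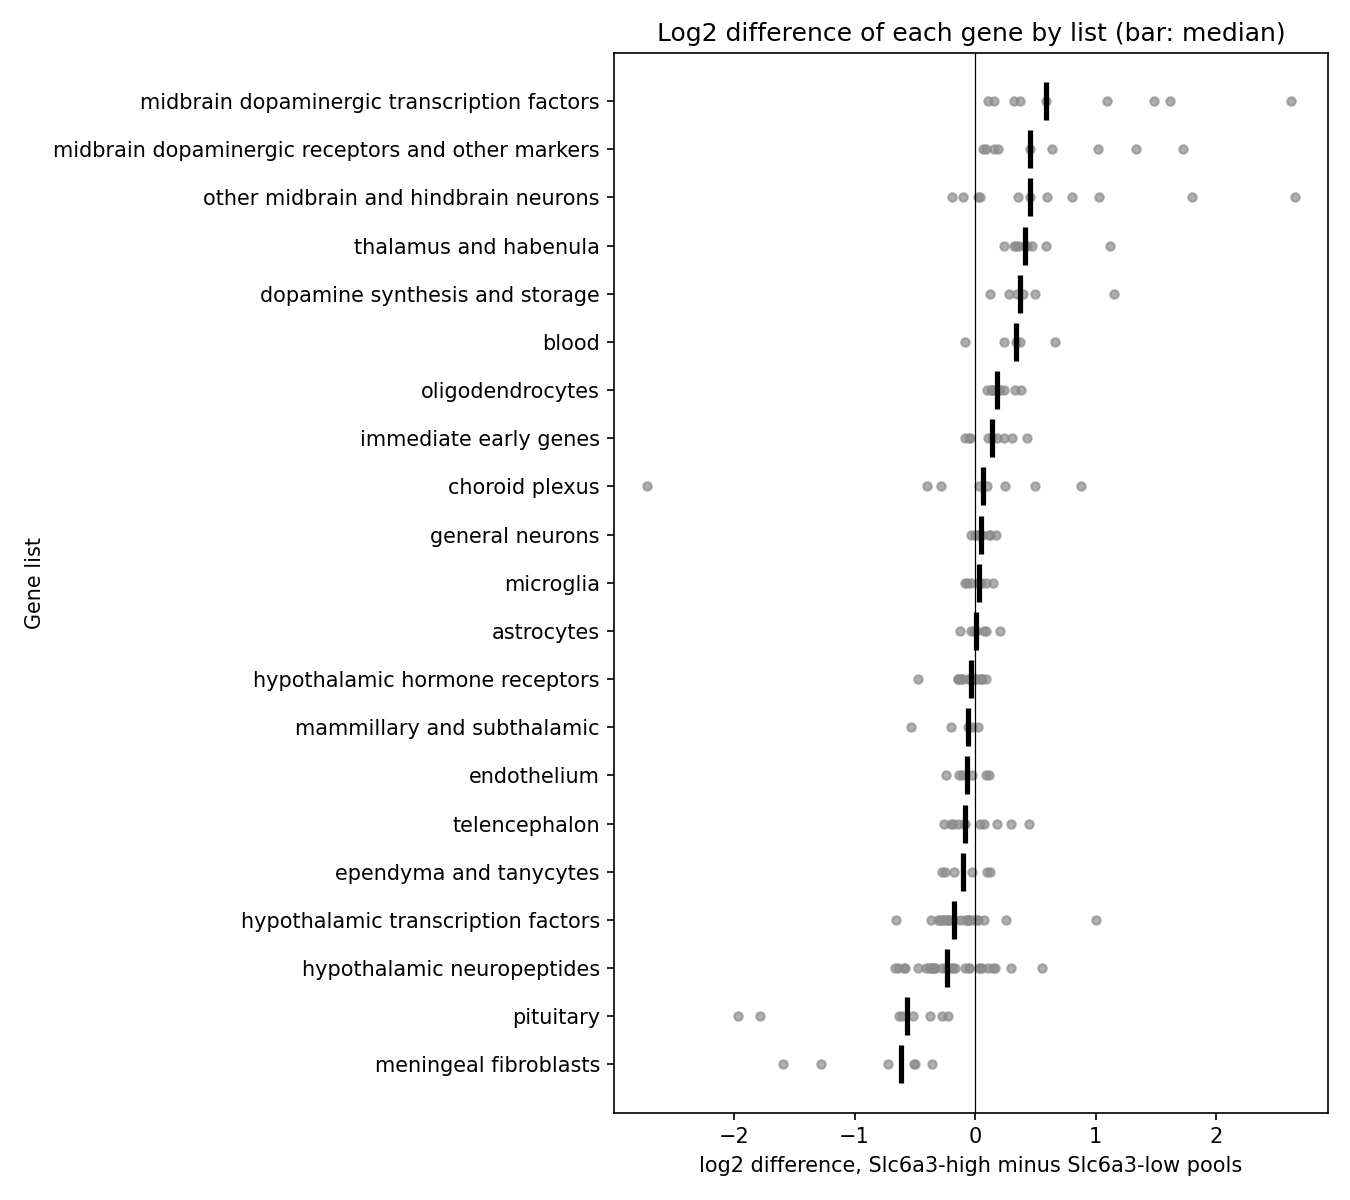
Log2 difference, high minus low pools, of each gene (points) in the 21 lists fixed for this work, with list medians as bars. The median is -0.62 for meningeal fibroblasts and 0.59 for midbrain dopaminergic transcription factors.

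**Figure D4:**
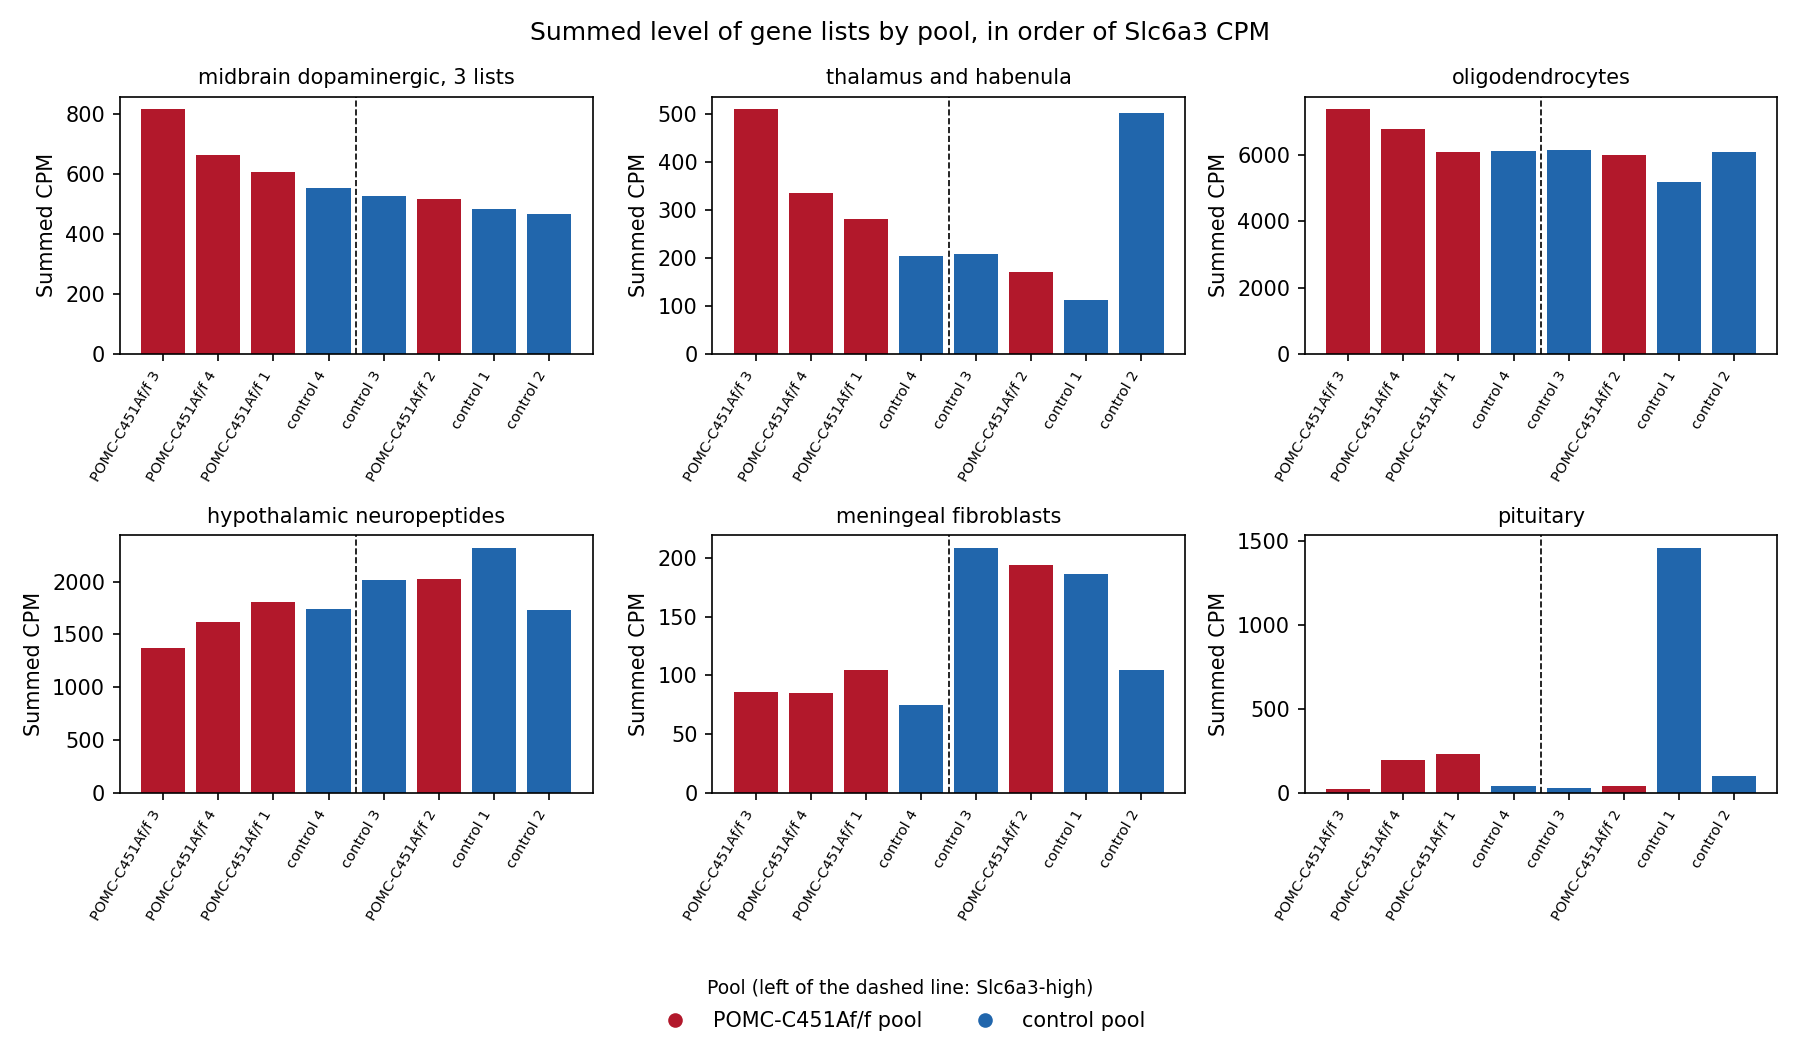
Summed level in CPM of gene lists in each pool, by side of *Slc6a3* and coloured by genotype. Meningeal fibroblast genes sum to 75 CPM in control replicate 4 and 209 CPM in control replicate 3.

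Outside the lists, and leaving out unnamed models and pseudogenes, 6 separated genes with a mean of at least 1 CPM were higher in the high pools. The voltage-gated potassium channel *Kcna3* was at 4.16, 6.98, 4.0 and 4.79 CPM in the high and 2.58, 3.06, 2.53 and 3.74 CPM in the low pools, a log2 difference of 0.74 (SE 0.193). *Htr5b*, a serotonin receptor of the habenula, measured 2.5, 1.08, 1.33 and 1.22 CPM and 1.0, 1.02, 0.893 and 1.01 CPM, with a difference of 0.64 (SE 0.255). The most of the low pools and the least of the high pools were close in *Htr5b*, and without POMC-C451Af/f replicate 3 its difference was 0.30, under the threshold. The others were *Lingo4* (0.64), the transcription factor *Onecut1* (0.59), *Fam111a* (0.51) and *Pakap* (0.50), all without overlap by definition. Left-out pools took 3 of these under the threshold, *Onecut1*, whose sides almost touched, to 0.44 without control replicate 1, *Fam111a* to 0.44 without POMC-C451Af/f replicate 4, 0.48 without control replicate 3 and 0.47 without control replicate 4, and *Pakap* to 0.41 without POMC-C451Af/f replicate 4, 0.44 without control replicate 1, 0.46 without POMC-C451Af/f replicate 3 and 0.48 without control replicate 2.

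Genotype, which the labels give, was tested with and without the *Slc6a3* side as a term. After Benjamini-Hochberg adjustment, the quasi-likelihood test of edgeR called 4 of 18637 genes at FDR 0.05 and a log2 fold change over 0.5 (0.0215%), and with the side as a term also 4 (0.0215%), the same 4 genes. At an unadjusted p under 0.05 there were 950 genes without the term and 654 with it. *Esr1* measured 9.996, 10.8, 11.6 and 16 CPM in the high pools and 11.6, 12.2, 12.3 and 12.8 CPM in the low pools, and gene counts do not tell the mutated from the intact transcript. For *Esr1* the genotype log2 fold change was -0.23 (SE 0.104) and, with the side, -0.28 (SE 0.114), or 0.0027 without control replicate 4. It was not called in either fit. Of the 24 midbrain genes, 0 were called in either fit by edgeR or by DESeq2 as run here. Without the side 14 had an unadjusted p under 0.05 in edgeR's test, beside 950 of all 18637 genes. With the side 3 did, beside 654 of 18637. The 24 were listed as markers of the same cells, with earlier results known, so they are not separate observations. Their median log2 fold change, mutant over control, was 0.40 without the side and 0.24 with it, beside 0.00085 and 0.0015 over all tested genes. For *En1* it was 1.99 and 1.01. Since the side was made from *Slc6a3*, a marker of the same cells, and goes with genotype in 6 of 8 pools, the change with the side cannot be told apart from how the pools were chosen, and nothing is read from it. The additive fit draws on the 2 pools whose side departs from their genotype, POMC-C451Af/f replicate 2 and control replicate 4, so side and genotype cannot be fully told apart.

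*Efr3b* (ENSMUSG00000020658.11), which helps to anchor a lipid kinase at the plasma membrane, was at 536, 585, 599 and 289 CPM in the high pools and 297, 605, 271 and 288 CPM in the low pools, and rose in mutants by a log2 fold change of 1.02 (SE 0.0435, edgeR adjusted p = 3.56e-06), with the side 1.04 (SE 0.0498, edgeR adjusted p = 3.07e-05). Control replicate 4 was low and POMC-C451Af/f replicate 2 high among the pools of their sides. *Efr3b* lies close to *Pomc* on chromosome 12 of GRCm38, from 3962554 to 4038915, with *Pomc* from 3954951 to 3960642. Only the mutants are described with the POMC-Cre transgene, so the mutated receptor and the transgene cannot be told apart here. The part of either in the *Efr3b* difference was not tested. *Myo7a*, an unconventional myosin, was at 24.5, 23.9, 22.8 and 38.6 CPM and 38.5, 25.2, 42.1 and 39 CPM, with log2 fold changes of -0.72 (SE 0.0442, edgeR adjusted p = 8.17e-05) and, with the side, -0.68 (SE 0.048, edgeR adjusted p = 0.00059). With the side as a term *Myo7a* was not called without control replicate 4 (-0.66) or with the replicate number as a block (-0.66). The other called genes, *Mrpl48-ps* and *Gm44675*, are a pseudogene and an unnamed model that may share reads with other genes, so their counts are uncertain. With the side neither was called without POMC-C451Af/f replicate 2, and *Gm44675* was not called without control replicate 3 or control replicate 4. The replicate block ended both calls in either fit. *Pomc* had a genotype log2 fold change of -0.59, with the side -0.40, and without control replicate 1 these were -0.28 and -0.21. It was not called in either fit with all pools (edgeR adjusted p = 0.878 and 1). As a description of the gene that chose the pools, that of *Slc6a3* was 1.86 and, with the side, 0.85, or 0.43 without control replicate 4.

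**Figure D5:**
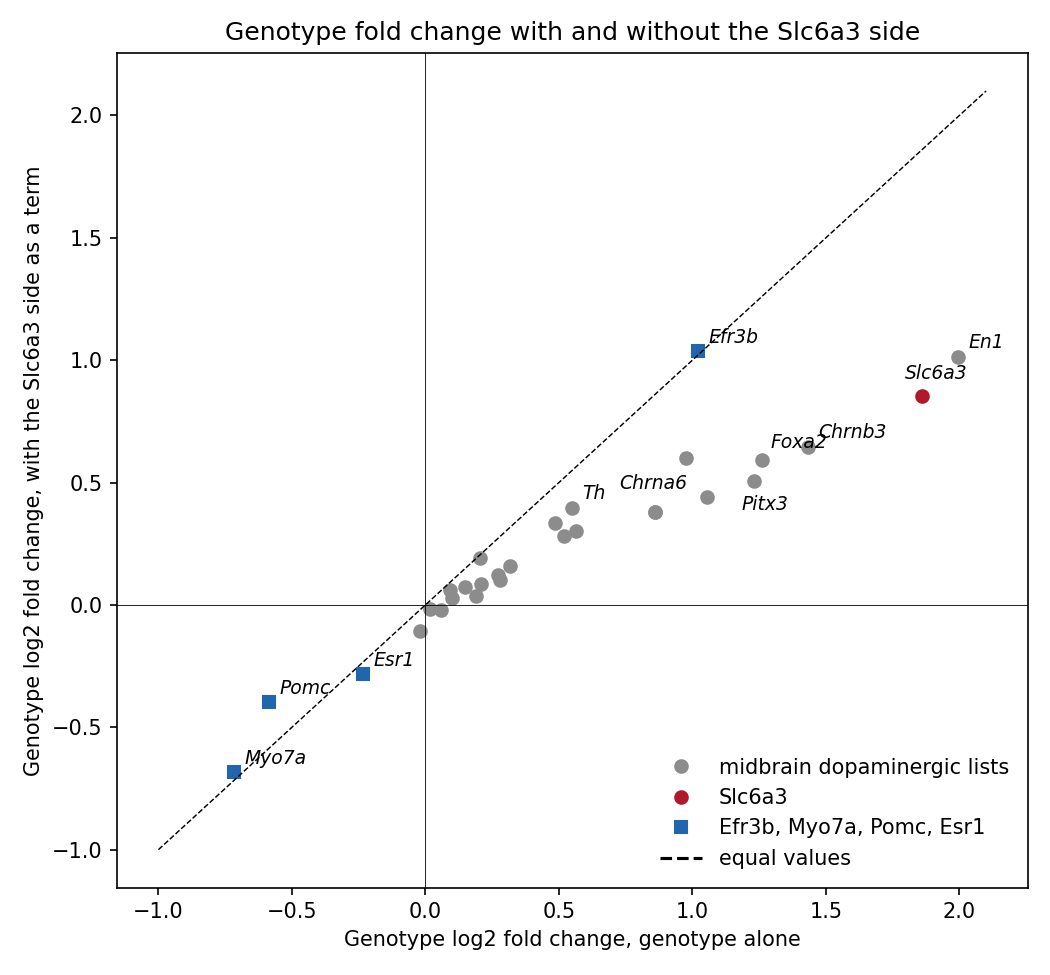
Genotype log2 fold change, mutant over control, from the fit with genotype alone (horizontal axis) and with the *Slc6a3* side as a term (vertical axis); points are genes and the dashed line marks equal values. *En1* lies at 1.99 and 1.01, and *Efr3b* at 1.02 and 1.04.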

How the data were processed

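Per the submitters' processing notes and the study's methods, the authors quantified reads with Salmon 1.10 on GRCm39 and summed them to genes, and the deposited table holds estimated counts of 55890 genes, not normalized. The authors' table of comparisons, which holds log2 fold changes, standard errors, Wald statistics, p-values and adjusted p-values, was not used. Of the identifiers, 51424 matched a symbol, and positions are on GRCm38, an earlier build than the authors' GRCm39.

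Estimated counts were rounded to whole numbers, filtered with filterByExpr (minimum count 10, minimum total 15; 18637 genes kept), normalized by TMM (factors 0.984 to 1.02) and fitted with edgeR 4.0.16 (estimateDisp, glmQLFit, glmQLFTest) in R 4.3.3. DESeq2 1.42.0 was an alternative. The standard error is the absolute log2 fold change over the square root of the F statistic. Differences within a genotype used log2(CPM + 0.5). The procedure was tested on simulated data. The counts of all pairs of pools differed by more than sampling alone gives (lowest chi-square per degree of freedom 4.597).

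The members and lists were chosen with earlier results of these data known. The text names all genes of the 3 midbrain dopaminergic lists, up to 6 separated genes of each of the other fixed lists (21 in all) or else the most abundant gene (for 3 lists not reported here), up to 12 separated genes per direction outside the lists with a mean of at least 1 CPM other than unnamed models and pseudogenes, and *Esr1*, *Pomc*, *Efr3b* and *Myo7a*. Other genes were named after their values were seen. The lists cover dopamine synthesis and storage, midbrain dopaminergic transcription factors, midbrain dopaminergic receptors and other markers, other midbrain and hindbrain neurons, mammillary and subthalamic, thalamus and habenula, telencephalon, hypothalamic neuropeptides, transcription factors and hormone receptors, pituitary, choroid plexus, oligodendrocytes, astrocytes, microglia, endothelium, meningeal fibroblasts, ependyma and tanycytes, blood, general neurons and immediate early genes. Another 3 lists (leptomeningeal barrier, border macrophages, mural cells), the promoter motif GGGCGG and the choice of promoters shown came after values or matches were seen. Alternatives were other normalizations and filters, a genotype term, the replicate number as a block, other fold thresholds, DESeq2 and each pool left out.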

Additional observations from a re-analysis of the deposited data

Results flagged for a closer look

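For each of 108 sets of 4 pools on a side, the distance of the highest or lowest pool to the next was divided by the range of the set. In 9 sets that ratio, given below as the gap, was large enough for the pool to stand apart. Chance finds about 1 in 20 groups.

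In control replicate 1, *Pomc* was at 98.9 CPM against 49.7 to 50.5 CPM in the other low pools (gap 0.984), pituitary genes had a mean log2 CPM of 3.85 against 1.54 to 1.87 (gap 0.859), and oligodendrocyte genes one of 7.59 against 7.78 to 7.82 (gap 0.842). In control replicate 2, the meningeal fibroblast list was at 3.51 against 4.30 to 4.39 (gap 0.903), *Slc18a2* at 36.1 CPM against 46.8 to 48.5 CPM (gap 0.859) and *Ntsr1* at 19.9 CPM against 22.9 to 23.3 CPM (gap 0.859). In POMC-C451Af/f replicate 3, *Ddc* was at 72.8 CPM against 52.5 to 55.8 CPM in the other high pools (gap 0.837).

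In POMC-C451Af/f replicate 2, *Efr3b* was at 605 CPM against 271 to 297 CPM in the other low pools (gap 0.921), and in control replicate 4, *Myo7a* was at 38.6 CPM against 22.8 to 24.5 CPM in the other high pools (gap 0.893). Each of these is the single pool of its genotype on its side. Both genes were called between genotypes with the side as a term. In that fit *Myo7a* was not called without control replicate 4 or with the replicate number as a block. No explanation of the 9 sets was tested.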

How the results depend on the processing

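The count of genes separated and higher was 54. It was 162 without the filter, 13 at a log2 difference over 1, 760 with no fold threshold, and 78 to 143 when each pool was left out, most without control replicate 2. The count separated and lower was 143, and these settings gave 248, 49, 694 and 180 to 314, again most without control replicate 2. With 7 pools, 4 against 3, the sides are less likely to overlap. Of the 197 genes in both directions, 177 to 189 were among those separated with 1 pool left out.

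Midbrain dopaminergic genes separated were 8, 14 with no fold threshold and 7 to 11 with a pool left out. For neuropeptides the count was 1, 0 at a log2 difference over 1, 2 with no fold threshold and 1 to 4 with a pool left out, with 4 without POMC-C451Af/f replicate 1 or control replicate 4. For meningeal fibroblasts it was 4, 2 at a log2 difference over 1 and 3 to 6, with 6 without control replicate 2. With a pool left out, medians ranged from 0.14 to 1.0 for thalamus and habenula, 0.32 to 0.51 for the midbrain lists, -0.31 to -0.13 for neuropeptides, -0.22 to -0.10 for hypothalamic transcription factors, 0.11 to 0.22 for oligodendrocytes and -0.76 to -0.57 for meningeal fibroblasts.

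Genotype calls were 4, 13 with DESeq2 and 4 to 5 with a pool left out. With the side as a term they were 4, 17 without the filter, 10 with DESeq2 and 2 to 4 with a pool left out, 2 without POMC-C451Af/f replicate 2. In that fit, leaving out control replicate 4 turned the log2 fold changes of *Chrnb3* and *Esr1* (ranges with a pool left out -0.066 to 1.24 and -0.56 to 0.0027), and *Myo7a*, at -0.66, was no longer called. The cause was not tested.

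With the replicate block, 61 genes were separated and higher and 150 were separated and lower. Those higher included 8 midbrain dopaminergic genes, and those lower 2 neuropeptides and 3 meningeal fibroblast genes. The median was 1.39 for the thalamus and habenula list and -0.37 for neuropeptides. Genotype calls were 2, with the side 1, and *Myo7a* with the side was at -0.66 and not called. Deviations from the genotype means correlated between pools of one number at 0.141, -0.179, -0.109 and 0.243, which is no sign of pairing by number.

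Pools of a pair of animals vary less than single animals would. With 4 pools a side, the order of single pools decides which genes overlap, and low genes such as *Pitx3* rest on few counts.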

Other observations

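*Rsc1a1*, chosen after its values were seen, was at 1.6, 1.5, 1.16 and 1.01 CPM in the *Slc6a3*-high pools and had a count of 0 in each low pool. It lies on chromosome 4 of GRCm38 from 141683851 to 141685599, within *Ddi2* (141677549 to 141723419) on the same strand, so reads of either gene could be split between them and its counts are uncertain. *Ddi2* was at 67, 68.5, 60.9 and 63.2 CPM in the high pools and 58.6, 63.9, 58.5 and 62 CPM in the low pools.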
